A study of Mus musculus with 22 samples.

Results

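The epidermal growth factor (EGF) receptor ligands and receptors described here are the genes *Hbegf*, *Areg*, *Ereg*, *Tgfa* and *Btc*, which encode ligands, and *Egfr*, *Erbb2*, *Erbb3* and *Erbb4*, which encode the receptors. They were chosen by name, with earlier results of these data known. They make up 9 of the 32858 genes with at least 1 read in the kidney RNA-Seq table. All 9 were among the 17131 genes kept for testing, although *Areg* and *Ereg* passed the filter on low counts only through the kidneys of mice given cisplatin. EGF itself (*Egf*) was not among the 9 and is given beside them where a result turns on it.

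The kidneys came from 22 male C57Bl6/J mice of 8 to 10 weeks, with 1 library per mouse. Vehicle mice (n = 5) received the carrier alone, KW6002 mice (n = 6) received KW6002 at 3 mg/kg by daily intraperitoneal injection from day -5 to day 7, cisplatin mice (n = 5) received 6 daily injections of cisplatin at 3 mg/kg from day 0, and cisplatin plus KW6002 mice (n = 6) received both. Animals were killed 72 hours after the last cisplatin injection. Whether the cisplatin mice also received the KW6002 carrier is not stated in the sources used here. The cisplatin plus KW6002 and cisplatin groups may therefore differ in carrier as well as in KW6002. KW6002 (istradefylline) is an antagonist of the adenosine A2A receptor, and the design asks which kidney genes cisplatin, a platinum drug that injures the renal tubule, alters with and without it. The p-values below measure the spread between mice.

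The ligands of this family are made as membrane-anchored precursors that metalloproteases cut free. They bind EGFR or ERBB4, and the bound receptors pair with each other or with ERBB2, which has no ligand of its own, or ERBB3, whose kinase is weak, and signal through the ERK and PI3 kinase cascades. In the kidney, EGF is made mainly by the thick ascending limb and distal convoluted tubule, and signalling through EGFR is known both for tubular repair after injury and for fibrosis when it persists.

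Library totals ran from 26471762 to 40510754 counts. The tissue label held against its markers, since 10 of 10 proximal tubule markers summed to a median of 36550 CPM (read counts scaled to the effective library size) in vehicle kidneys. The same sum was 3211 CPM in cisplatin kidneys, with 10 of 10 markers lower, and 8341 CPM in cisplatin plus KW6002 kidneys. Because these are whole kidneys, fewer cells of a type and less RNA per cell cannot be told apart in any of the results below.

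Cisplatin kidneys held more RNA of 4 of the 5 ligands and of *Egfr* than vehicle kidneys, and less of *Erbb2* and *Erbb4*, with 5 members higher, 2 lower and 2 not past the test (edgeR quasi-likelihood test, Benjamini-Hochberg adjusted p below 0.05 over all genes tested). Of all 17131 genes, 34.6% were higher and 35.9% lower in that comparison, so that a call in itself was common and the sizes carry the description. Scaling by library totals alone shifted the median of all genes by 0.22 in log2 and gave 8157 genes higher and 4244 lower, in place of 5930 and 6155, with no member called in the other direction. The median log2 difference of the 9 members was 0.55, that of the 5 ligands 2.48 and that of the 4 receptors -0.24, beside -0.01 over all genes tested. The count and these medians include *Areg* and *Ereg*, which had to differ to pass the filter and whose fitted changes rest on vehicle libraries with almost no reads. Of the other 7 members, 3 were higher, 2 lower and 2 not past the test, with a median log2 difference of 0.14, and the median of the other 3 ligands was 2.09.

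*Hbegf* encodes heparin-binding EGF-like growth factor, a ligand of EGFR and ERBB4, and lies on the minus strand of chromosome 18 at 36504927-36515805 (GRCm38). Its level in the vehicle kidneys was 17.0, 13.9, 17.4, 21.7 and 19.5 CPM. In the cisplatin kidneys it was 73.3, 85.8, 81.0, 78.8 and 62.2 CPM. The lowest cisplatin kidney thus stood far above the highest vehicle kidney. The log2 difference was 2.09 ± 0.14 (SE), or 4.26-fold with a 95% interval of 3.47 to 5.22 (edgeR adjusted p = 1.0e-11). Among kidneys whose animal numbers lay in the 500s, the series that holds all cisplatin mice and 2 of the 5 vehicle mice, the log2 difference was 1.88 (edgeR adjusted p = 2.4e-07). Those 2 vehicle kidneys held 19.5 and 21.7 CPM, above the 3 vehicle kidneys numbered in the 300s, at 13.9 to 17.4 CPM.

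KW6002 given with cisplatin left *Hbegf* between the levels of the cisplatin and the vehicle kidneys, at a lowest of 40.5, a median of 45.2 and a highest of 65.8 CPM in 6 kidneys. Its 2 highest kidneys overlapped the lowest cisplatin kidney, and all 6 lay above every vehicle kidney. Against cisplatin alone the log2 difference was -0.60 ± 0.13 (SE), a level lower by 1.52-fold (interval 1.27 to 1.83, edgeR adjusted p = 3.7e-04). Against vehicle it was still 1.48 ± 0.14 (SE) (edgeR adjusted p = 5.0e-09).

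*Tgfa*, which encodes transforming growth factor alpha, a ligand of EGFR, lies on chromosome 6 at 86195223-86275719. Vehicle kidneys held 5.67, 5.25, 7.09, 6.41 and 6.18 CPM. Cisplatin kidneys held 40.3, 35.0, 34.0, 34.4 and 27.2 CPM. No cisplatin kidney came near the vehicle range, and the log2 difference was 2.48 ± 0.12 (SE), or 5.58-fold (interval 4.67 to 6.68, edgeR adjusted p = 5.5e-14). It was 2.44 among animals numbered in the 500s.

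With KW6002 added to cisplatin, *Tgfa* ran from 8.36 through a median of 11.3 to 14.6 CPM. These 6 kidneys lay between the others, below every cisplatin kidney and above every vehicle kidney. The level was lower than in cisplatin kidneys by 3.00-fold (interval 2.56 to 3.53, log2 difference -1.59 ± 0.11 (SE), edgeR adjusted p = 1.1e-10). Of the members with more than a few reads in every group, *Tgfa* had the largest difference in both comparisons.

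*Areg* encodes amphiregulin and *Ereg* epiregulin, both ligands of EGFR, with epiregulin also binding ERBB4. The genes are neighbours on the plus strand of chromosome 5, *Ereg* at 91074622-91093646 and *Areg* at 91139599-91148432, with 46.0 kb between them. Both were close to silent in kidneys without cisplatin. *Areg* had 1, 1, 0, 0 and 0 counts in the vehicle kidneys and 75, 38, 73, 83 and 62 counts in the cisplatin kidneys. *Ereg* had 0, 1, 0, 1 and 0 counts in the former and 50, 41, 50, 55 and 33 in the latter. Every cisplatin kidney stood well above every vehicle kidney for each gene.

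Because the vehicle libraries held at most 1 count each, the size is given as the ratio of pooled counts per effective library size, with an exact interval that covers counting error only. For *Areg* it was 128-fold (interval 35.1 to 1059, from 331 against 2 counts). For *Ereg* it was 88.3-fold (interval 24.2 to 733.7, from 229 against 2 counts). Fitted without the filter, which both genes passed only through the cisplatin kidneys, the edgeR adjusted p was 7.6e-10 for *Areg* and 3.0e-09 for *Ereg*. In CPM the cisplatin means were 1.78 ± 0.49 (SD, n = 5) for *Areg* and 1.22 ± 0.23 (SD, n = 5) for *Ereg*, so both remained minor transcripts beside *Hbegf*.

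Cisplatin plus KW6002 kidneys held less of both. *Areg* ran from 8 counts to 40 counts, with a lowest level of 0.228, a median of 0.590 and a highest of 1.37 CPM. Replicate 3 of this group overlapped the lowest cisplatin kidney, while the other 5 lay below that group. Against cisplatin the log2 difference was -1.50 ± 0.35 (SE), a level lower by 2.83-fold (interval 1.71 to 4.67, edgeR adjusted p = 9.3e-04). The filter that *Areg* passed rested on the cisplatin kidneys of this same comparison. Fitted without the filter, the edgeR adjusted p was 0.0010.

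*Ereg* ran from 4 to 35 counts in the cisplatin plus KW6002 kidneys, with a lowest level of 0.137, a median of 0.227 and a highest of 0.997 CPM. Replicate 5 alone reached the cisplatin range. The log2 difference was -1.72 ± 0.35 (SE), a level lower by 3.30-fold (interval 1.99 to 5.47, edgeR adjusted p = 2.4e-04), and without replicate 5 it was -2.36. *Ereg* too passed the filter through the cisplatin kidneys of this comparison, and without the filter the edgeR adjusted p was 3.2e-04. The antisense gene *Gm19610* overlaps exons of *Ereg* and held at most 8 counts in a library, and the strand setting used in counting is not given in the sources used here.

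*Btc*, which encodes betacellulin, a ligand of EGFR and ERBB4, follows *Areg* on the same chromosome, 208.8 kb away at 91357261-91402994 on the minus strand. It showed no difference past the test. Its levels were 8.39, 10.2, 12.0, 9.23 and 7.49 CPM with vehicle. With cisplatin they were 10.5, 9.37, 7.94, 8.11 and 6.06 CPM. The ranges overlapped almost fully, with a log2 difference of -0.17 (interval -0.51 to 0.17, edgeR adjusted p = 0.37).

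With KW6002 added to cisplatin, *Btc* ran from 7.58 through 10.6 to 14.3 CPM. Its log2 difference from cisplatin was 0.34 (interval 0.01 to 0.66, edgeR adjusted p = 0.071), in the direction opposite to the other 4 ligands. That value passed the threshold when any 1 of 3 libraries was left out, with adjusted p as low as 0.025 without cisplatin plus KW6002 replicate 3. *Epgn*, the gene of epigen at the near end of this run of ligand genes, held at most 4 counts in a library and was not tested. The 4 ligand genes of the run span 375.5 kb from *Epgn* to *Btc*, and the 2 of them with large ratios, *Ereg* and *Areg*, lay between the untested *Epgn* and the uncalled *Btc*.

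**Figure D1:**
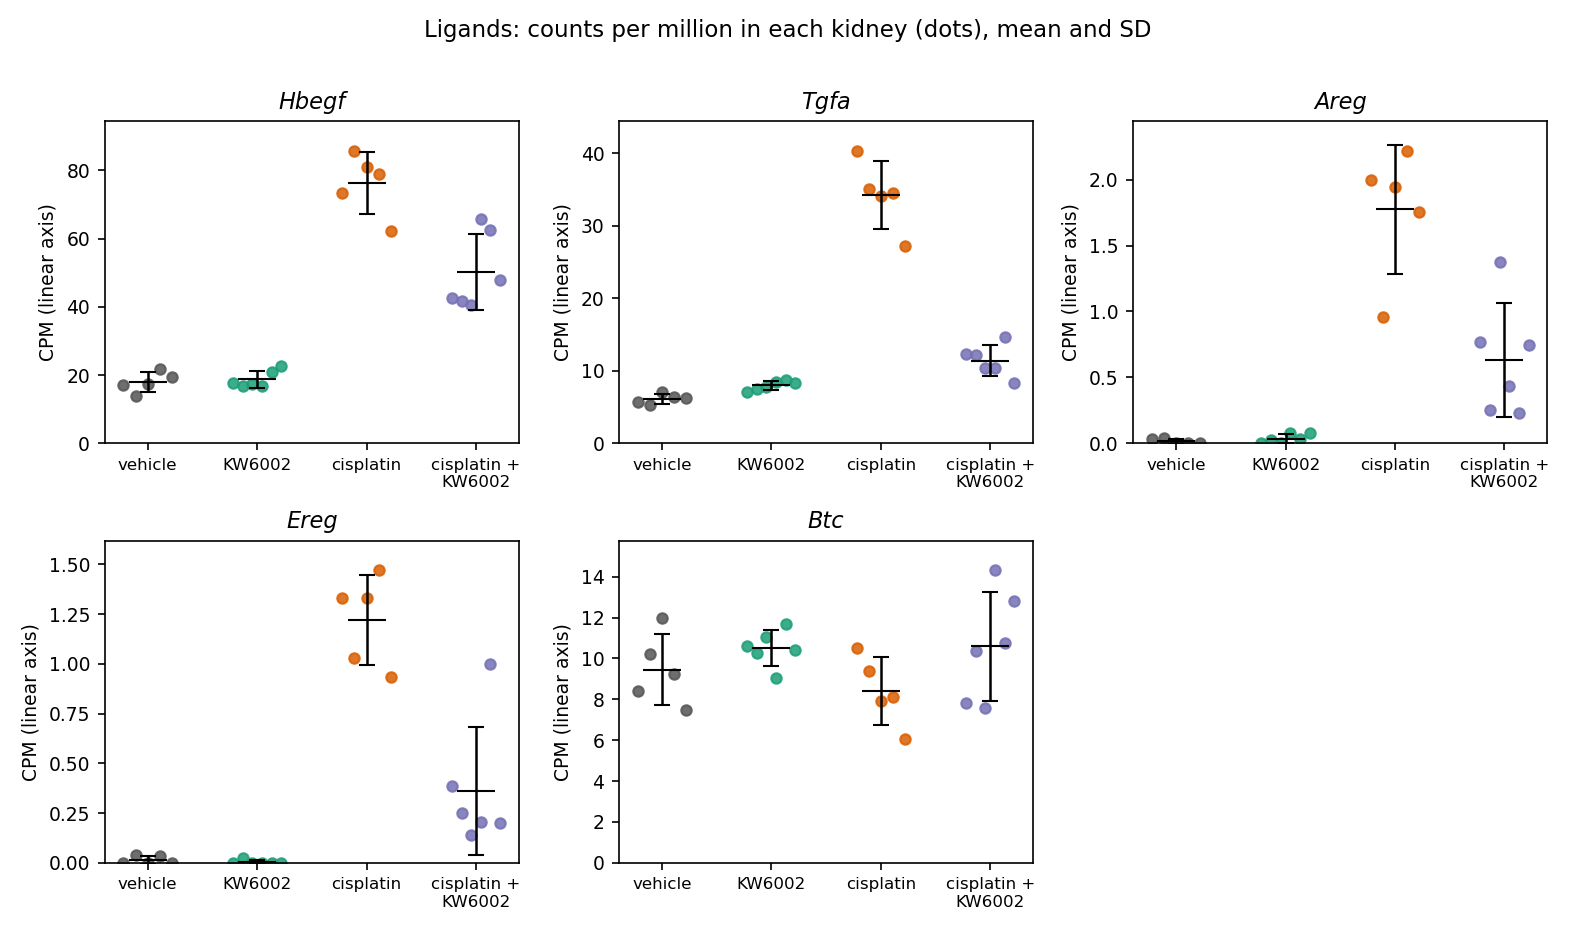
Level of each ligand RNA in CPM (linear axis from 0, own scale per gene) in the 22 kidneys by treatment, 1 dot per kidney, with the mean and SD as a black bar. Hbegf, Tgfa, Areg and Ereg were high in the 5 cisplatin kidneys and lower in the 6 cisplatin plus KW6002 kidneys, whereas Btc ranges overlapped in all groups.

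The promoter of *Areg* is shown beside those of its neighbour *Btc* and of *Tgfa*, because the 3 genes had very unequal basal levels and cisplatin differences. Each is the 250 bases before the RefSeq start (GRCm38.p6), 5′ to 3′ on the strand of the gene, at chr5:91139349-91139598 for *Areg*, chr5:91402995-91403244 for *Btc* and chr6:86194972-86195221 for *Tgfa*. Capitals mark the cyclic AMP response element TGACGTCA and the TATA motif TATAAA.
Areg: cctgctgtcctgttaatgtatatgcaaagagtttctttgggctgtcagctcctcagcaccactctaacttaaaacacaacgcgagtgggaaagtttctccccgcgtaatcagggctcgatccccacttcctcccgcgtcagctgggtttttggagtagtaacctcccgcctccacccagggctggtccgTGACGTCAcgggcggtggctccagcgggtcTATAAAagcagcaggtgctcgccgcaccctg
Btc: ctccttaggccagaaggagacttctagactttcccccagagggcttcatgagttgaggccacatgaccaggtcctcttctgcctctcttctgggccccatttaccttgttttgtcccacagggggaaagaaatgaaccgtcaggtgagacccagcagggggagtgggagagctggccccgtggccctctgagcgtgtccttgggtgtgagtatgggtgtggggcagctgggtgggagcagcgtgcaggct
Tgfa: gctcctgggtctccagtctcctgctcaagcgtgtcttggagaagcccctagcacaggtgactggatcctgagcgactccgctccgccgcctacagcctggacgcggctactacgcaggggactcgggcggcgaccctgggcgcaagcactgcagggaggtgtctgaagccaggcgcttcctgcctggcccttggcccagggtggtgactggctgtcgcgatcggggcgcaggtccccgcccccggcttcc

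The *Areg* window held TGACGTCA starting at position -61 and TATAAA starting at -31, counted from the RefSeq start. Among 32851 promoter windows of the same length, 1.55% held TGACGTCA, 12.4% held TATAAA and 6.75% held the AP-1 motif TGANTCA, each searched on both strands and without overlap in the *Areg* window. The windows of *Btc* and *Tgfa* held none of the 3 motifs, and the window of *Areg* held no TGANTCA. These matches describe the letters only, and binding was not measured. Promoters were printed for 3 of the 6 members found in the promoter table, which did not include *Ereg*.

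In cisplatin kidneys the receptors moved less than the raised ligands, and not in 1 direction. *Egfr*, on chromosome 11 at 16752203-16918158, encodes the receptor that all 5 ligands bind. Its levels were 88.0, 83.7, 104.5, 108.7 and 111.8 CPM in vehicle kidneys. In cisplatin kidneys they were 152.5, 142.5, 144.1, 141.1 and 145.2 CPM. The cisplatin kidneys all lay above the vehicle range, at 1.46-fold (interval 1.27 to 1.69, log2 difference 0.55 ± 0.10 (SE), edgeR adjusted p = 4.0e-05). Among animals numbered in the 500s the log2 difference was 0.39 (edgeR adjusted p = 0.013). The 2 vehicle kidneys of that series held 108.7 and 111.8 CPM, above the 3 vehicle kidneys numbered in the 300s, at 83.7 to 104.5 CPM.

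*Egfr* was the 1 cisplatin-raised member whose level in cisplatin plus KW6002 kidneys did not pass the test against cisplatin. Those 6 kidneys ran from 121.4 through 147.3 to 185.1 CPM and spanned the whole cisplatin range. Their log2 difference from cisplatin was 0.04 (interval -0.16 to 0.23, edgeR adjusted p = 0.77), and from vehicle it was 0.58 ± 0.10 (SE) (edgeR adjusted p = 1.9e-05).

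*Erbb2*, the gene of the ligandless partner receptor, lies on the same chromosome at 98412470-98437716. Vehicle kidneys held 100.6, 94.4, 83.0, 72.0 and 87.9 CPM. Cisplatin kidneys held 57.3, 62.1, 53.8, 54.3 and 59.5 CPM. All 5 lay under the vehicle range, and the log2 difference was -0.61 ± 0.11 (SE), a level lower by 1.53-fold (interval 1.31 to 1.77, edgeR adjusted p = 2.1e-05). It was -0.48 among animals numbered in the 500s (edgeR adjusted p = 0.0012). Within the KW6002 group, the 3 animals numbered in the 300s held 93.2 to 99.4 CPM and the 3 in the 500s held 73.5 to 77.7 CPM, so the series differed there without cisplatin.

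With KW6002 added to cisplatin, *Erbb2* ran from 69.1 through 76.1 to 101.2 CPM. No kidney of this group overlapped the cisplatin kidneys, and the group overlapped the vehicle kidneys. The log2 difference from cisplatin was 0.46 ± 0.10 (SE), or 1.38-fold (interval 1.19 to 1.60, edgeR adjusted p = 4.7e-04). Exons of *Erbb2* overlap those of *Mien1* on the other strand, which held up to 3061 counts in a library, so the split of reads between the pair is uncertain. *Mien1* itself differed by -0.43 ± 0.07 (SE) in log2 between cisplatin and vehicle kidneys (edgeR adjusted p = 5.7e-06) and by 0.14 ± 0.06 (SE) between cisplatin plus KW6002 and cisplatin kidneys (edgeR adjusted p = 0.079).

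*Erbb3*, on chromosome 10 at 128567523-128589652, encodes the receptor that binds neuregulins and signals through PI3 kinase. Levels ran from 143.4 to 190.7 CPM with vehicle and from 163.9 to 205.4 CPM with cisplatin. These ranges overlapped, with a log2 difference of 0.14 (interval -0.17 to 0.44, edgeR adjusted p = 0.43). Cisplatin plus KW6002 kidneys ran from 104.3 through 133.1 to 214.9 CPM, and replicate 3 of that group exceeded every cisplatin kidney. The group differed from cisplatin by -0.38 ± 0.14 (SE) in log2 (edgeR adjusted p = 0.027). That call was lost when any 1 of 5 libraries was left out (cisplatin replicate 2 or 3, or cisplatin plus KW6002 replicate 1, 4 or 5), with adjusted p of 0.052 to 0.069.

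*Erbb4*, on chromosome 1 at 68032186-69108059, encodes a receptor for neuregulins, heparin-binding EGF-like growth factor, betacellulin and epiregulin. Its levels were 20.8, 28.1, 44.1, 39.1 and 45.7 CPM with vehicle. They were 18.2, 19.3, 13.5, 16.2 and 16.7 CPM with cisplatin. All cisplatin kidneys lay below the vehicle range, although the highest was near the lowest vehicle kidney. The log2 difference was -1.08 ± 0.18 (SE), a level lower by 2.12-fold (interval 1.64 to 2.74, edgeR adjusted p = 1.1e-05), and it was -1.34 among animals numbered in the 500s.

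The cisplatin plus KW6002 kidneys held *Erbb4* at 25.1 to 32.9 CPM with a median of 28.3, above every cisplatin kidney and inside the vehicle range. The log2 difference from cisplatin was 0.76 ± 0.17 (SE), or 1.70-fold (interval 1.33 to 2.17, edgeR adjusted p = 6.5e-04). Against vehicle it was -0.32 (interval -0.67 to 0.03, edgeR adjusted p = 0.10), and it passed the test there at -0.57 among animals numbered in the 500s (edgeR adjusted p = 0.0014), at -0.54 with the number series as a covariate (edgeR adjusted p = 0.0088) and at -0.46 without vehicle replicate 1 (edgeR adjusted p = 0.010).

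**Figure D2:**
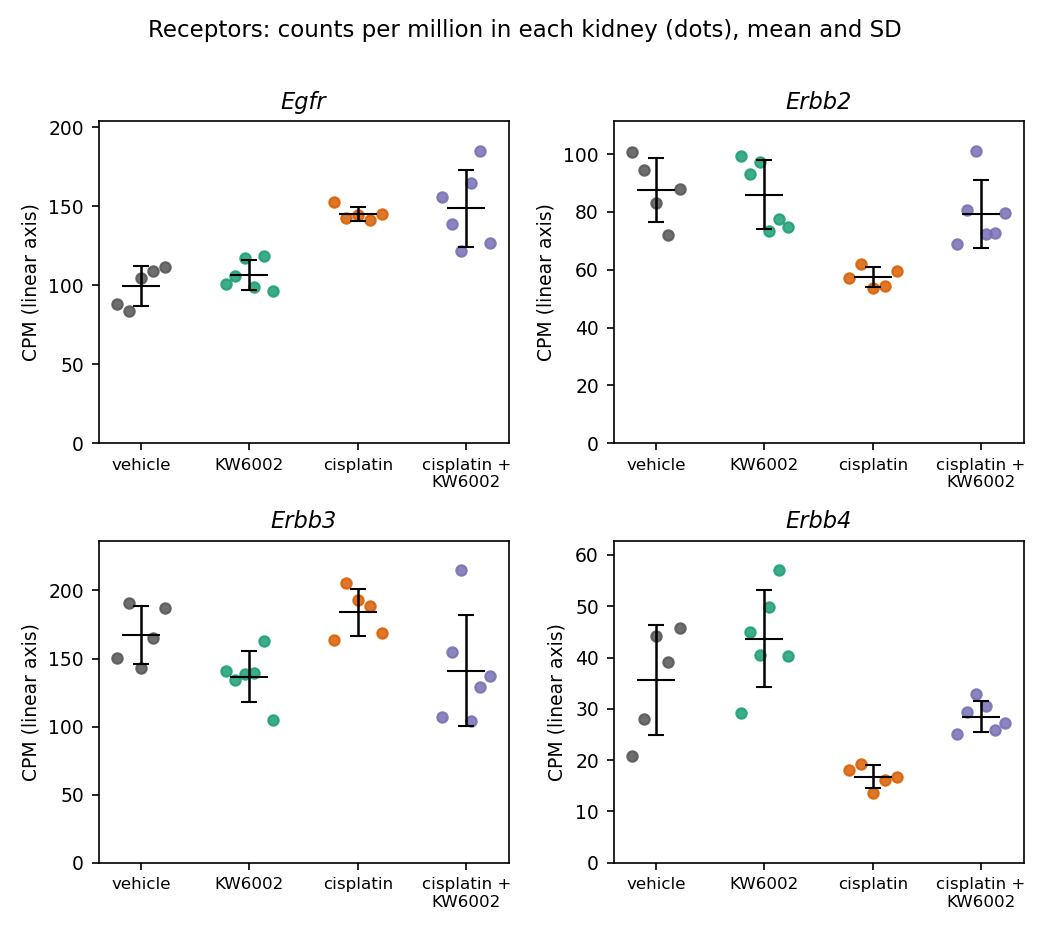
Level of each receptor RNA in CPM (linear axis from 0, own scale per gene) in the 22 kidneys by treatment, 1 dot per kidney, with the mean and SD as a black bar. Cisplatin kidneys lay above all vehicle kidneys for Egfr and below all of them for Erbb2 and Erbb4, and cisplatin plus KW6002 kidneys lay above all cisplatin kidneys for Erbb2 and Erbb4.

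In all, KW6002 added to cisplatin gave 2 members higher, 5 lower and 2 not past the test against cisplatin alone, beside 28.6% of all genes higher and 27.2% lower. The 4 ligands raised in cisplatin kidneys and *Erbb3* were the 5 lower members, and *Erbb2* and *Erbb4* the 2 higher. The median log2 difference was -0.60 over the 3 ligands other than *Areg* and *Ereg* and 0.25 over the receptors, beside 0.01 over all genes tested. Without *Areg* and *Ereg*, 3 of 7 members were lower. This comparison and that of cisplatin with vehicle share the cisplatin kidneys, so their directions are not independent of each other.

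Compared with vehicle, cisplatin plus KW6002 kidneys had 5 members higher (*Hbegf*, *Areg*, *Ereg*, *Tgfa* and *Egfr*), 0 lower and 4 not past the test, beside 29.8% of all genes higher and 29.9% lower (edgeR). Without *Areg* and *Ereg*, 3 of 7 members were higher. The count of 0 lower members was also given by DESeq2, and 0 of the 4 had an unadjusted p below 0.05. Without cisplatin plus KW6002 replicate 3, *Erbb2* (log2 difference -0.23, edgeR adjusted p = 0.039) and *Erbb3* (-0.40, edgeR adjusted p = 0.0046) were lower than in vehicle kidneys. *Tgfa* was 1.86-fold higher (interval 1.56 to 2.21) and *Hbegf* 2.80-fold higher (interval 2.30 to 3.41) than in vehicle kidneys. The pooled count ratio to vehicle was 44.5 for *Areg* (interval 12.1 to 371.5) and 26.8 for *Ereg* (interval 7.17 to 225.8).

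KW6002 alone gave 0 of 9 members past the test against vehicle in either direction by edgeR and by DESeq2, beside 0.0175% of all genes higher and 0.0% lower by edgeR. That is 3 genes higher and 0 lower, where DESeq2 called 50 higher and 52 lower of 16289 and edgeR with the number series as a covariate 22 and 18. One member, *Tgfa*, had an unadjusted p below 0.05 in edgeR, a level that 11.3% of all genes reached. *Tgfa* ran from 7.13 through 8.06 to 8.76 CPM with KW6002, just above the highest vehicle kidney, with a log2 difference of 0.38 (interval 0.13 to 0.63, edgeR adjusted p = 0.25). Within the KW6002 group the animals numbered in the 500s were the higher ones, at 8.35 to 8.76 CPM against 7.13 to 7.77 CPM for the 300s. Vehicle kidneys of the 500s, at 6.18 to 6.41 CPM, lay within the range of the 300s, at 5.25 to 7.09 CPM. The *Tgfa* log2 difference was 0.43 in the 500s (edgeR adjusted p = 0.46). With the number series as a covariate it was 0.36 (edgeR adjusted p = 0.22). *Hbegf* ran from 16.7 to 22.8 CPM and overlapped the vehicle kidneys, with a log2 difference of 0.06 (interval -0.22 to 0.35). *Areg* and *Ereg* had at most 2 counts in any KW6002 or vehicle library, under the floor of 3 counts, and no ratio between these groups is given.

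The effect of KW6002 with cisplatin was compared with its effect without cisplatin as a difference of the 2 log2 differences. It was lower for 2 members, higher for 1 and not past the test for 6, of which *Areg* and *Ereg* give no usable value, beside 19.9% of all genes lower and 22.8% higher. The value was -1.97 ± 0.17 (SE) for *Tgfa* (edgeR adjusted p = 7.8e-09). It was -0.67 ± 0.19 (SE) for *Hbegf* (edgeR adjusted p = 0.0066), which became -0.57 with adjusted p = 0.076 among animals numbered in the 500s. For *Erbb2* it was 0.49 ± 0.14 (SE) (edgeR adjusted p = 0.0078). *Erbb4*, at 0.47 ± 0.24 (SE), did not pass (edgeR adjusted p = 0.12), but did at 0.56 among animals numbered in the 500s (edgeR adjusted p = 0.022) and at 0.61 without vehicle replicate 1 (edgeR adjusted p = 0.019).

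**Figure D3:**
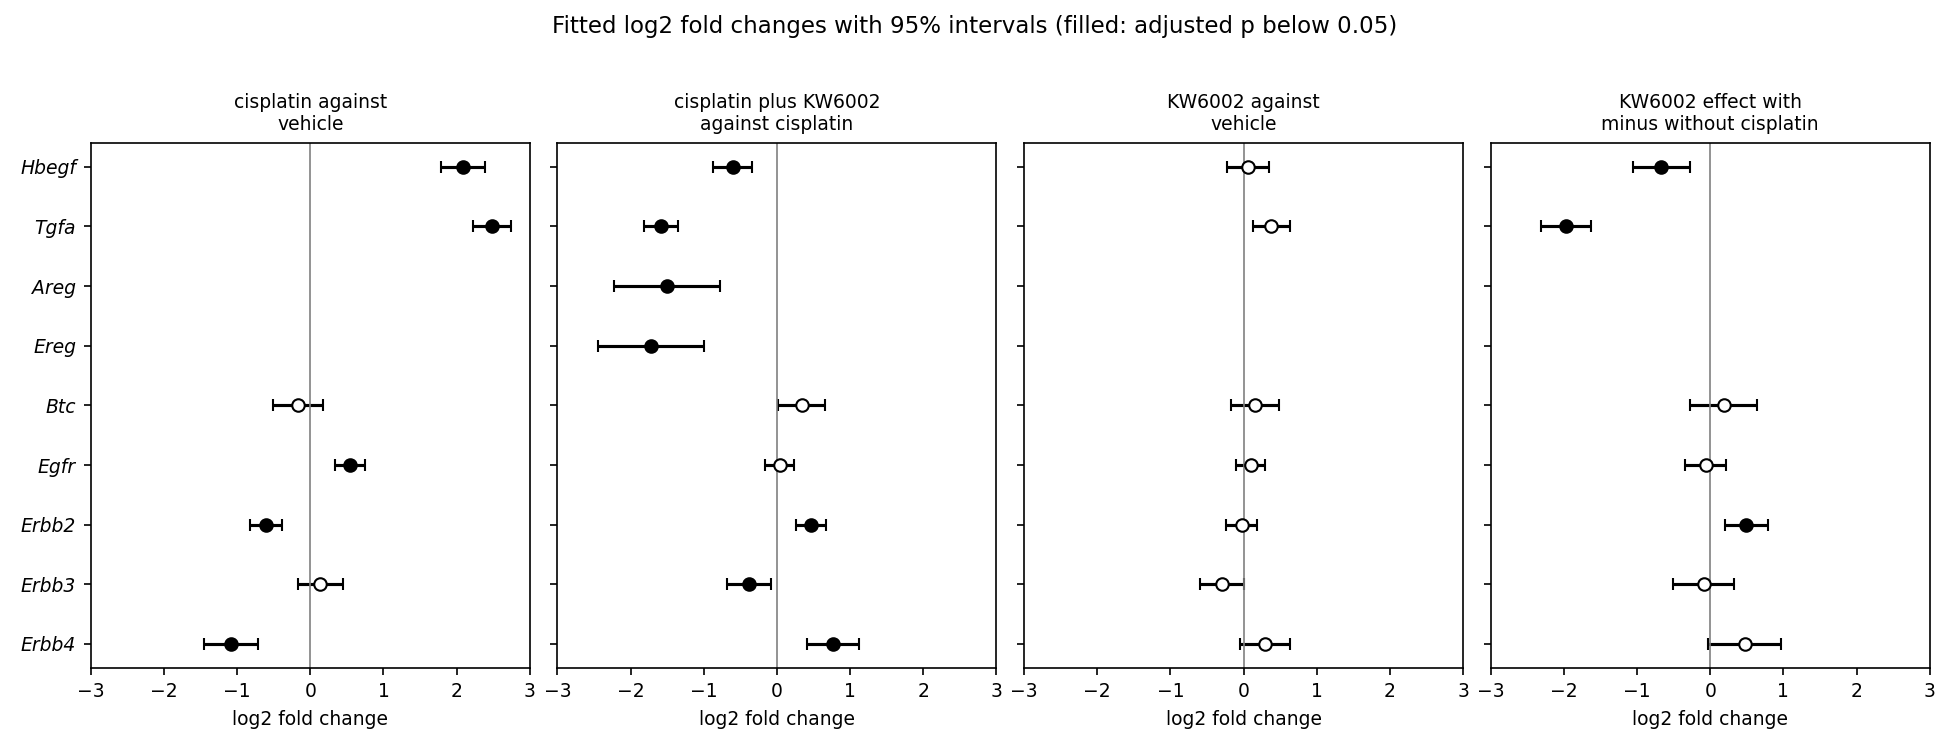
Fitted log2 differences of the members with 95% intervals (horizontal axis) for 3 comparisons and for the difference between the KW6002 effects, with filled dots for adjusted p below 0.05. Areg and Ereg are drawn only for cisplatin plus KW6002 against cisplatin, where both groups held reads, and Tgfa shows the values 2.48, -1.59, 0.38 and -1.97 from left to right.

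Levels were compared between genes per length, as RPKM, the CPM divided by the length of all exons of the gene in kilobases. Vehicle kidneys ranked *Erbb3* at 27.8 ± 3.55 (SD, n = 5), *Erbb2* at 16.8 ± 2.10, *Egfr* at 8.77 ± 1.12 and *Hbegf* at 3.71 ± 0.61 RPKM. *Erbb4* and *Btc* followed at 2.88 ± 0.87 and 2.09 ± 0.38 RPKM, and *Tgfa* at 0.943 ± 0.109 RPKM. The ranges of *Hbegf* and *Erbb4*, and of *Erbb4* and *Btc*, overlapped, as did those of *Areg* and *Ereg* at the end, whereas the other neighbours in the order were separate.

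In cisplatin kidneys *Hbegf* moved to the second place at 15.8 ± 1.87 RPKM (SD, n = 5), overlapping *Egfr* at 12.8 ± 0.39 and standing above *Erbb2* at 11.02 ± 0.67 RPKM. *Tgfa* reached 5.27 ± 0.72 RPKM. The levels of *Btc*, *Areg* and *Erbb4* overlapped pairwise as neighbours in the order, at 1.86 ± 0.37, 1.46 ± 0.40 and 1.36 ± 0.18 RPKM. *Ereg* stayed last at 0.296 ± 0.055 RPKM. The 4 receptors together summed to 56.3 ± 4.0 RPKM with vehicle and 55.8 ± 2.79 RPKM with cisplatin, while the share of *Egfr* in that sum went from 15.6% ± 2.24 to 23.0% ± 1.66 and that of *Erbb2* from 29.9% ± 3.92 to 19.8% ± 1.22 (SD, n = 5 each).

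The ligand RNA as a whole changed its makeup. *Egf*, the gene of the kidney's main ligand, held 225.1 ± 45.2 RPKM in vehicle kidneys and 6.73 ± 1.22 RPKM in cisplatin kidneys (SD, n = 5 each), a log2 difference of -5.07 ± 0.29 (SE) (edgeR adjusted p = 4.5e-13). The 5 ligands together held 6.76 ± 0.67 RPKM and 24.7 ± 2.57 RPKM in the same kidneys. *Egf* therefore made up 97.0% ± 0.45 of the RNA of the EGFR ligands, *Epgn* included, with vehicle (SD, n = 5) and 21.6% ± 4.92 with cisplatin (SD, n = 5). In the 5 cisplatin kidneys that share ran from 16.9% to 29.9%, so the 5 ligands outweighed *Egf* in every one.

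Cisplatin plus KW6002 kidneys were in between and spread wider. They held 27.8 ± 14.1 RPKM of *Egf* and 15.1 ± 2.66 RPKM of the 5 ligands (SD, n = 6 each). The share of *Egf* ran from 48.7% to 78.7%, with replicates 3 and 6 the highest and replicates 4 and 5 just under equal amounts. KW6002 kidneys held 96.8% ± 0.30 (SD, n = 6), and their range of 96.4% to 97.3% overlapped that of vehicle kidneys.

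Markers of the segments that make *Egf* were lower in the same kidneys. The 5 thick ascending limb markers summed to a median of 6882 CPM with vehicle and 2248 CPM with cisplatin, with 5 of 5 lower, and the 5 distal convoluted tubule markers to 2096 and 162 CPM, with 5 of 5 lower. With KW6002 added these sums were 3478 and 464 CPM. The 7 collecting duct markers did not fall together, with sums of 661 CPM with vehicle, 703 CPM with cisplatin and 890.2 CPM with KW6002 added, and 1 of 7 higher and 2 lower in cisplatin kidneys. Their part in the level of *Egf* was not tested.

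**Figure D4:**
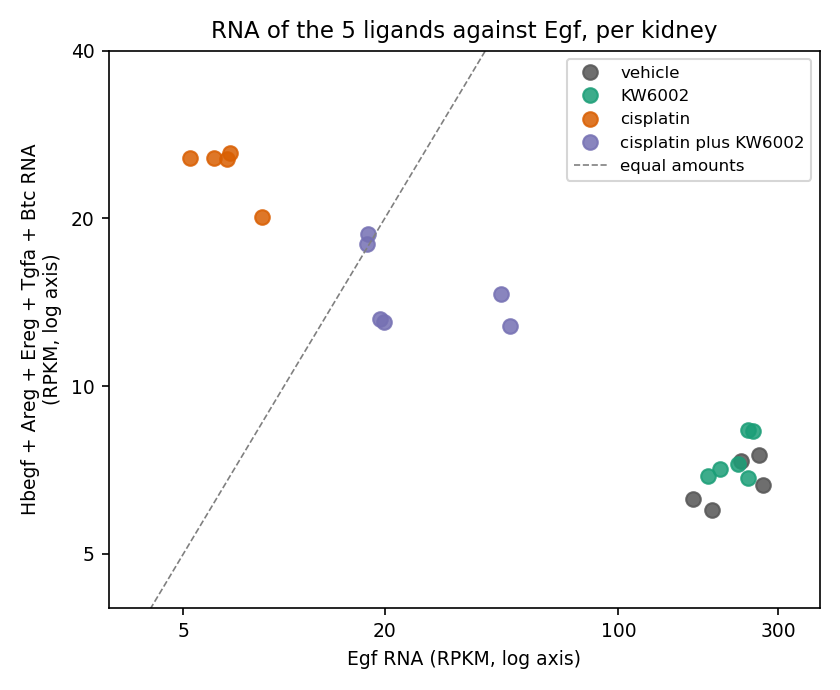
Summed RNA of Hbegf, Areg, Ereg, Tgfa and Btc (vertical, RPKM, log axis) against Egf RNA (horizontal, RPKM, log axis), 1 dot per kidney, with a dashed line of equal amounts. All 5 cisplatin kidneys lie left of the line, at 5.23 to 8.56 RPKM of Egf, and the 11 vehicle and KW6002 kidneys lie far to its right.

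Markers of injured tubule and of other cell types also moved with the 4 raised ligands. The injured tubule list (*Havcr1*, *Lcn2*, *Krt18*, *Krt20*, *Vcam1*, *Sox9*) summed to 31.5 to 41.03 CPM with vehicle, 1407 to 2557 CPM with cisplatin and 393.1 to 814.8 CPM with cisplatin plus KW6002, with 6 of 6 higher in cisplatin kidneys and 5 of 6 lower once KW6002 was added. The urothelium list, which shares *Krt20* with it, summed to 4.70 to 28.3, 187.9 to 338.5 and 42.7 to 93.6 CPM in the same groups, with 5 of 6 higher and then 5 of 6 lower. The fibroblast list summed to 214.8 to 438.2, 893.7 to 1171 and 404.9 to 725.6 CPM, with 6 of 6 higher and then 5 of 6 lower. No defining marker of these 3 lists was at 0, and their part in the ligand levels was not tested. Macrophage markers summed to 162.4 to 312.8 CPM with vehicle and 207.6 to 287.4 CPM with cisplatin, with 1 of 7 higher and 2 lower.

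Across the 22 kidneys, the genes whose log2 CPM followed a member most closely were found by Pearson's r among 12765 genes, as a description in which the treatment groups make up most of the spread. *Hbegf* was followed most closely by *Egr2*, an immediate early transcription factor (r = 0.99, and 0.80 after group means were removed), then by *Cd81* and *Btg2*. *Tgfa* was followed by *Actn1* (r = 0.98), *Cttn* and *Rock2*, which encode an actin crosslinker, a cortical actin regulator and a kinase of the actin skeleton. *Areg* was followed by *Nfkb2* (r = 0.97), *Ereg* by *S100a6* (r = 0.98) and *Erbb4* by *Slc2a13* (r = 0.98). *Egfr* was followed by *Rpl10a* (r = 0.95) and *Erbb2* by *Ggact* (r = 0.93), while *Erbb3* (*Khnyn*, r = 0.84) and *Btc* (*Knop1*, r = 0.79) had no neighbour as near over all 22 kidneys. After group means were removed, r with the same genes was 0.825 for *Erbb3* and 0.829 for *Btc*. It was then 0.782 for *Tgfa*, 0.627 for *Areg*, 0.606 for *Ereg*, 0.805 for *Egfr*, 0.771 for *Erbb2* and 0.916 for *Erbb4*.

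Among the members themselves, *Ereg* and *Hbegf* had r = 0.94, *Hbegf* and *Tgfa* r = 0.88 and *Egfr* and *Hbegf* r = 0.87 over the same 22 kidneys, and *Erbb2* ran against *Tgfa* with r = -0.85. After group means were removed, these 4 values were 0.25, 0.39, 0.58 and -0.47 in the same order. *Areg* and *Ereg* had r = 0.89 over all kidneys and -0.36 within groups, on few counts, and did not peak together in the cisplatin plus KW6002 group. There the kidney with the most *Areg* (replicate 3) had the least *Ereg*, and the kidney with the most *Ereg* (replicate 5) had the least *Areg*.

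Of 80 other genes of the pathway, listed by role with earlier results of these data known, 75 were tested. Cisplatin kidneys had 48 of them higher and 13 lower than vehicle kidneys, with a median log2 difference of 0.44, beside the shares of all genes given above. Once KW6002 was added, 8 were higher and 41 lower than with cisplatin alone, beside 28.6% and 27.2% of all genes, with a median of -0.21. Against vehicle, cisplatin plus KW6002 kidneys had 41 higher and 20 lower, beside 29.8% and 29.9% of all genes. KW6002 alone gave 0 called by edgeR and by DESeq2, with 15 of 75 at an unadjusted p below 0.05 in edgeR beside 11.3% of all genes. The effect of KW6002 with cisplatin minus that without it was higher for 8 and lower for 31, beside 22.8% and 19.9% of all genes.

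Among the other ligands, *Nrg1*, the gene of neuregulin 1, which binds ERBB3 and ERBB4, was higher in cisplatin kidneys. Its level was 13.7 ± 1.59 CPM with vehicle and 107.2 ± 9.30 CPM with cisplatin (SD, n = 5 each), a log2 difference of 2.97 ± 0.18 (SE) (edgeR adjusted p = 1.8e-12). It was lower by 0.43 in log2 when KW6002 was added (edgeR adjusted p = 0.025), where its range of 52.9 to 115.2 CPM still overlapped that of cisplatin kidneys. Of the 6 genes in this list, *Nrg3* was absent from the kidney RNA-Seq counts, and 3 were tested. Of the 3 tested, 1 was higher and 1 lower in cisplatin kidneys, beside 34.6% and 35.9% of all genes. With KW6002 added, 1 was higher and 2 were lower than with cisplatin alone, beside 28.6% and 27.2% of all genes.

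Of 14 genes for ligand shedding and its control, 6 were higher and 3 lower in cisplatin kidneys, beside 34.6% and 35.9% of all genes. *Rhbdf2*, which encodes iRhom2, the partner that carries the sheddase ADAM17 to the cell surface, rose by 1.95 ± 0.08 (SE) in log2, from 14.2 ± 1.42 to 54.8 ± 5.54 CPM (SD, n = 5 each; edgeR adjusted p = 4.2e-15). *Adam17* itself gave -0.10 (edgeR adjusted p = 0.17). *Adam8*, of another metalloprotease, rose by 2.24 in log2 (edgeR adjusted p = 5.7e-05), and *Mep1b*, a brush border protease of the proximal tubule, fell by 6.29 in log2 (edgeR adjusted p = 3.9e-12). With KW6002 added, 9 of the 14 were lower and 2 higher than with cisplatin alone, beside 27.2% and 28.6% of all genes. *Rhbdf2* differed by -0.51 and *Mep1b* by 4.11 in log2 there.

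Of 20 receptor partners and adaptors, 12 were higher and 5 lower in cisplatin kidneys, beside 34.6% and 35.9% of all genes. *Epha2*, an ephrin receptor that interacts with EGFR, rose from 8.90 ± 1.80 to 93.1 ± 12.2 CPM (SD, n = 5 each), by 3.38 in log2 (edgeR adjusted p = 5.5e-14), and *Muc1*, a mucin that binds ERBB receptors, by 2.15 (edgeR adjusted p = 3.4e-12). *Shc3*, an adaptor best known from neurons, differed by -3.27 (edgeR adjusted p = 3.1e-08) from a level of 1.12 ± 0.28 CPM. The cisplatin libraries held 1 to 7 counts of *Shc3*, around the floor of 3 counts, so the size of that difference is uncertain. With KW6002 added, 11 were lower and 2 higher than with cisplatin, beside 27.2% and 28.6% of all genes. *Epha2* differed by -1.19 in log2 there.

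Of 19 tested genes for receptor inhibition and turnover, 15 were higher and 2 lower in cisplatin kidneys, beside 34.6% and 35.9% of all genes. *Errfi1*, which encodes the EGFR kinase inhibitor MIG6, rose by 0.88 in log2, from 569.4 ± 65.2 to 1051 ± 45.2 CPM (SD, n = 5 each; edgeR adjusted p = 7.5e-09). Like *Egfr*, it gave a value near 0 between cisplatin plus KW6002 and cisplatin kidneys (-0.04, edgeR adjusted p = 0.74). *Anxa1*, of the membrane-binding protein annexin A1, rose by 1.14 (edgeR adjusted p = 1.7e-05), and *Usp8*, a deubiquitinase that acts on EGFR on endosomes, fell by 1.05 (edgeR adjusted p = 3.8e-14). With KW6002 added, 8 of the 19 were lower and 2 higher, beside 27.2% and 28.6% of all genes.

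Of 19 tested genes of ERK feedback and output, 14 were higher and 2 lower in cisplatin kidneys, beside 34.6% and 35.9% of all genes. Their median log2 difference was 0.76. *Fosl1*, which encodes the AP-1 subunit FRA1, rose from 0.0589 ± 0.0804 to 20.7 ± 5.17 CPM (SD, n = 5 each; edgeR adjusted p = 8.8e-14). *Egr1*, an immediate early transcription factor, rose from 8.49 ± 3.00 to 247.9 ± 58.6 CPM (SD, n = 5 each; edgeR adjusted p = 3.6e-10), and *Dusp5*, a nuclear phosphatase of ERK, from 1.58 ± 0.31 to 23.2 ± 4.09 CPM (SD, n = 5 each; edgeR adjusted p = 1.0e-14). With KW6002 added, 11 were lower and 1 higher than with cisplatin alone, beside 27.2% and 28.6% of all genes. *Fosl1* then held 5.78 ± 2.24 CPM and *Dusp5* 9.04 ± 1.69 CPM (SD, n = 6 each), with log2 differences of -1.84 and -1.36 that passed the test, and *Egr1* held 153.6 ± 73.6 CPM (SD, n = 6), with a log2 difference of -0.69 that did not (edgeR adjusted p = 0.072).

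**Figure D5:**
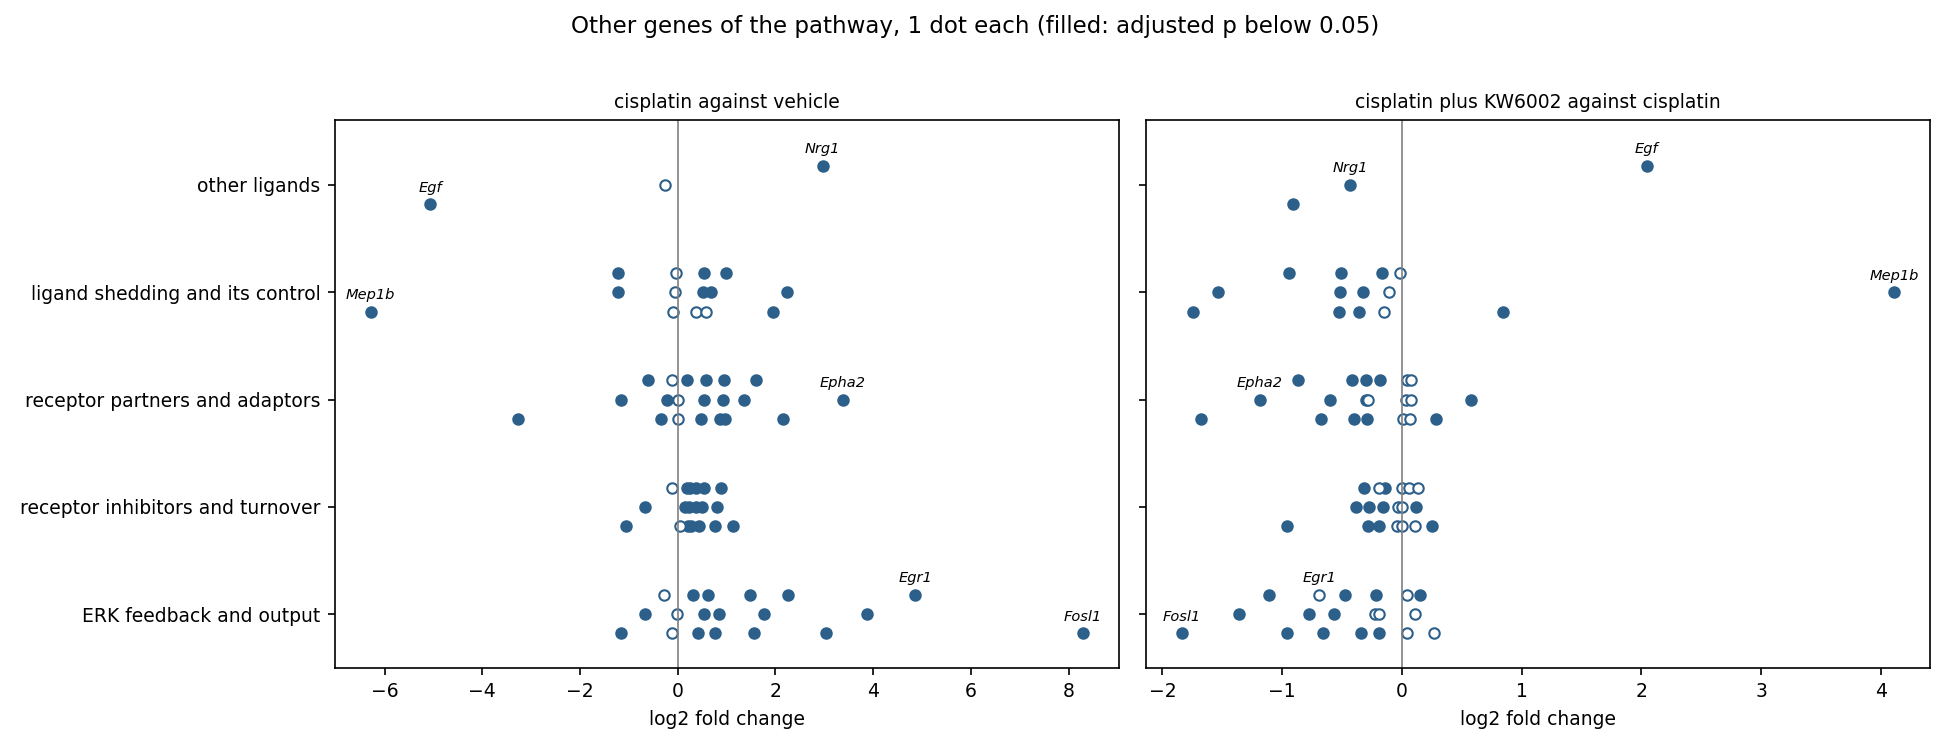
Log2 differences (horizontal axis, own scale per panel) of the 75 other tested pathway genes by role, 1 dot per gene offset vertically for visibility, filled for adjusted p below 0.05. The left panel shows Egf at -5.07 and Nrg1 at 2.97 in cisplatin against vehicle kidneys, and the right panel shows Egf at 2.04 when KW6002 was added.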

How the data were processed

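The authors prepared stranded poly-A libraries from kidney RNA, mapped single reads to mm10 with STAR, kept unique alignments and counted them per Ensembl gene with HTSeq-count 0.6.1p1. The deposited values are raw counts, and the strand setting of the counting is not given in the sources used here. Another 66 columns carry no name and were not used. Symbols, positions and exon lengths came from GENCODE M21 (GRCm38). Genes were kept with edgeR 4.0.16 filterByExpr, which left 17131, and fitted in R 4.3.3 by quasi-likelihood with TMM scaling, 1 mean per group over all 22 libraries and a common biological coefficient of variation of 0.129. Standard errors are the log2 difference over the root of F, and intervals use the t distribution of the fit. CPM uses TMM-scaled library sizes. DESeq2 1.42.0, other scalings and filters, covariates, the 500s series and leaving out each library were alternatives. The steps were tested on simulated counts. The members and lists were chosen with earlier results of these data known; of each pathway list the 3 tested genes with the largest called differences between cisplatin and vehicle are named, with *Egf* and *Epgn* whatever their values and, for likeness, the genes of highest Pearson r (mean log2 CPM 1 or more), besides *Adam17* and *Nrg3*, added after their values were seen.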

Additional observations from a re-analysis of the deposited data

Results flagged for a closer look

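*Ereg* in cisplatin plus KW6002 replicate 5 (0.997 CPM) and *Erbb2* in cisplatin plus KW6002 replicate 3 (101.2 CPM) each lay far above the other 5 kidneys of that group. Chance gives such a gap in about 1 of 20 groups, and 2 were found in 32 groups checked. Replicate 5 also had the least *Areg* of its group, and replicate 3 the most *Areg* and *Erbb3*. The effect of KW6002 with cisplatin differed from its effect without cisplatin for *Hbegf* (-0.67 in log2), *Tgfa* (-1.97) and *Erbb2* (0.49), by the test of the difference itself in edgeR.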

How the results depend on the processing

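Of 1221 member values recomputed under alternatives, 1204 kept their side of the threshold, 6 lost the call, 11 gained one and 0 changed direction past the threshold. Of 210 values of named pathway genes, 208 kept their side. Called values kept their direction, and 18 uncalled values changed sign. At adjusted p below 0.01 with a log2 difference beyond 1, the counts were 1 member lower in cisplatin against vehicle, 0 higher and 3 lower for KW6002 added to cisplatin, 3 higher in cisplatin plus KW6002 against vehicle, and 0 higher and 1 lower for the difference between the KW6002 effects, as the stricter threshold itself removes smaller differences. It also removed *Egfr*, at 0.55, from the members higher in cisplatin against vehicle. No share of all genes is given at this threshold. None is given for these comparisons with the number series as a covariate, in the 500s only or without 1 library. Those counts therefore describe the members only. Fitting cisplatin plus KW6002 and vehicle alone left 3 members higher, because *Areg* and *Ereg* did not pass the filter there and were not tested. *Hbegf*, *Tgfa* and *Egfr* kept their calls. With the number series as a covariate, 1 member was lower in cisplatin plus KW6002 against vehicle. With animals numbered in the 500s only, the counts were 1 lower there, and 2 higher and 1 lower for the difference between the KW6002 effects; the cause was not tested. Leaving out 1 library at a time gave 0 to 2 members lower in cisplatin plus KW6002 against vehicle (2 without cisplatin plus KW6002 replicate 3, 1 without vehicle replicate 1) and 1 to 2 higher for the difference between the effects (2 without vehicle replicate 1). With library totals alone, *Erbb3* passed the test in cisplatin against vehicle (0.35, edgeR adjusted p = 0.033), and all genes split into 7394 higher and 3525 lower in cisplatin plus KW6002 against vehicle in place of 5108 and 5114. Whether the replicate numbers pair any of the mice is not settled by the correlations. Of 31 same-numbered pairs, 7 correlated above 0.1 after group means were removed (median 0.0085, highest 0.405). Of 22 kidneys, 8 correlated best with their own number. With the replicate number as a block, 5966 genes were higher and 6121 lower in cisplatin against vehicle, *Tgfa* gave 2.48 there and -1.56 when KW6002 was added, and no member count moved. Depth limits *Areg* and *Ereg*, for which at most 2 counts per library without cisplatin leave the size of their ratios open over a wide interval.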
